A study of Sus scrofa with 9 samples.

Results

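The genes described are 10 early and delayed early response genes of the ERK pathway, of 19535 gene rows in the table: the ETS factors ETV1, ETV4, ETV5, ETS1 and ETS2, the AP-1 factors FOSL1, FOS and JUN, the zinc-finger factor EGR1, and IER3. They were chosen by name, with earlier results of these data known, and all 10 were present in the table and had enough counts to be tested. IER3 encodes no transcription factor: its protein is a small substrate of ERK with roles in cell survival.

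When bFGF (FGF2) binds its receptor, the adaptor FRS2 recruits GRB2 and SOS, RAS is loaded with GTP, and the kinases RAF, MEK and ERK are activated in turn. ERK phosphorylates the ternary complex factors that sit with SRF on the promoters of FOS, EGR1 and IER3, and these genes respond within minutes and decay soon after. FOSL1 and the PEA3 group (ETV1, ETV4 and ETV5) follow later and stay high for as long as the pathway is active, and transcripts of the PEA3 group are a common readout of FGF signalling. ETS1 and ETS2 proteins are themselves ERK substrates. In aortic valves, the interstitial cells are fibroblast-like cells that keep up the matrix, and they can take on an osteoblast-like state in culture media that favour calcium deposition.

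The libraries came from PVICs, porcine valvular interstitial cells of wild type pigs aged 4 to 5 months, isolated from aortic leaflets with collagenase after the endothelial surface had been scraped off. Control cells stayed in DMEM with fetal bovine serum. OIM cells received osteogenic medium, which adds insulin, ascorbic acid (50 µg/mL) and sodium dihydrogen phosphate (2 mmol/L), and bFGF cells received the same medium with 50 ng/mL bFGF. Each group had 3 libraries. The labels give 3 days of treatment, and the methods give a shorter time, so all levels below are those of lasting exposure and not of the first hours. Nothing in the sources used here says whether the 3 libraries of a group came from separate animals or cultures, and p-values then measure only the spread between these samples, which may be technical.

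A pair of promoter windows that carried a searched motif upstream of the annotated start is shown first, because they belong to ETV5, the gene with the largest rise, and to EGR1. Each line gives the 250 bases before the annotated start of the gene in Sscrofa11.1 (RefSeq annotation release 106), read 5′ to 3′ on the strand of the gene. The windows are chr13:123930293-123930542 on the minus strand for ETV5 and chr2:140440579-140440828 on the plus strand for EGR1. The single transcript model of FOS starts at its start codon, as does at least 1 of the 2 models of ETV5. The window of FOS thus ends at the coding sequence and that of ETV5 may do so. Both can hold untranslated leader in place of promoter. Capitals mark the motif matches described in the next paragraph.
ETV5: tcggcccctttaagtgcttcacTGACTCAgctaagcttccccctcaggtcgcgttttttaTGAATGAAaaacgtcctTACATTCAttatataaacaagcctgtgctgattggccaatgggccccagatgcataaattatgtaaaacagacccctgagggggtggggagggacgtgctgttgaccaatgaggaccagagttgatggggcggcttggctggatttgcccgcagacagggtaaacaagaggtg
EGR1: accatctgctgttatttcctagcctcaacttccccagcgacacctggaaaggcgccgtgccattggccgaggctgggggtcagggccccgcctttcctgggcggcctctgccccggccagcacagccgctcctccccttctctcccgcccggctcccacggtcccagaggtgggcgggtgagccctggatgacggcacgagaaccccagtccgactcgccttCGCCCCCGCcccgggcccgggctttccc

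Each search covered both strands and also the 50 bases after the start, and it was run on 19475 promoters. The octamer TGAATGNA is bound by CIC (Capicua), a repressor that active ERK removes from DNA and whose best known targets are the PEA3 genes. It was added to the search after the windows had been read. ETV5 held it at 2 places, from -190 to -183 on its own strand and from -173 to -166 on the other. Of all promoters, 3.11% held the octamer and 0.375% held it at 2 or more places, and the window of ETV1 had no match. ETV5 also held the AP-1 site TGANTCA from -228 to -222, which 6.03% of promoters held. The EGR1 site GCGGGGGCG, found in 6.69% of promoters, lay from -28 to -20 of EGR1 on the other strand and from 35 to 43 after the start of JUN. None of the 10 windows held the CRE TGACGTCA (2.26% of promoters), the ETS site CCGGAAGT (4.69%) or a CArG box (1.53%), with the same limit for the windows of ETV5 and FOS. Bases farther from the start were not searched, and the annotated starts were not checked against reads. The promoters of these genes may therefore still hold such sites. The matches overlapped no other motif searched, the same genes matched when the start shared by most transcript models was used, and none of this shows that a factor was bound.

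The control libraries held 57075793 to 64723837 counts on genes, the OIM libraries 57682710 to 67371523 and the bFGF libraries 46773376 to 48270827, so every bFGF library was shallower than every other. Levels are given as CPM, the counts divided by the library size after TMM scaling, with factors of 1.1 to 1.11 in bFGF and 0.937 to 0.967 elsewhere. OIM replicate 2 stood apart from the other OIM libraries (mean chi-square per gene 18.4 to each of them, against 5.78 between them), and for 8 of the 10 genes it was the highest OIM library. Markers of interstitial cells and fibroblasts were by far the strongest of the marker sets. The 10 interstitial and fibroblast markers summed to 61460 to 70275 CPM in control and OIM and to 37602 to 37956 CPM in bFGF. The sum was carried by the collagens COL1A1, COL1A2 and COL3A1. These collagens and DCN were called lower in bFGF than in OIM (COL3A1 not with library totals alone). VIM and S100A4 were called higher, and the other 4 were not called. Over all genes tested, 17.7% were called higher and 18.4% lower. The 4 epithelial markers summed to at most 0.169 CPM with KRT5 at 0 in every library. The 7 immune markers summed to 13 to 16.4 CPM in control and OIM and to 8.4 to 9.23 CPM in bFGF, with CD14 called lower in bFGF than in OIM (log2 fold change -0.81) and CD3E at 0 in every library. The 7 endothelial markers summed to 18.9 to 22.7 CPM in control and OIM and to 34 to 36.6 CPM in bFGF. Of these markers, 6 of 7 were called higher in bFGF than in OIM, beside 17.7% of all genes tested, and 5 without OIM replicate 2 (CLDN5 lost). Against control, 4 of 7 were called higher, beside 18.9% of all genes tested. CLDN5 had only 8, 1 and 1 counts in OIM and 20, 17 and 16 in bFGF, and KDR 0, 24 and 8 against 57, 52 and 76. PECAM1 was among those called against OIM, with 11.8 ± 1.06 CPM in OIM against 20.7 ± 1.07 CPM in bFGF (SD, n = 3 each), and VWF was not called. The part of these cells in the results below was not tested.

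Adding bFGF to OIM was accompanied by higher transcript levels of 6 of the 10 genes (ETV4, ETV5, FOSL1, JUN, EGR1 and IER3) and a lower level of ETS1. A call required an edgeR adjusted p no larger than 0.05 together with a log2 fold change of 0.5 or more in either direction. Over all 13662 genes tested, 17.7% were called higher and 18.4% lower in this comparison. The median log2 fold change was 1.12 over the 10 genes and -0.0029 over all genes. For all 10 genes the 3 bFGF libraries lay entirely above (8 genes) or entirely below (2 genes) the 3 OIM libraries, where 72.1% of all genes tested were separated one way or the other. When CPM was scaled by library totals alone, FOS overlapped and the other 9 genes did not, with 74.5% of all genes separated. In these bulk libraries, fewer cells of a type and less RNA per cell cannot be told apart.

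**Figure D1:**
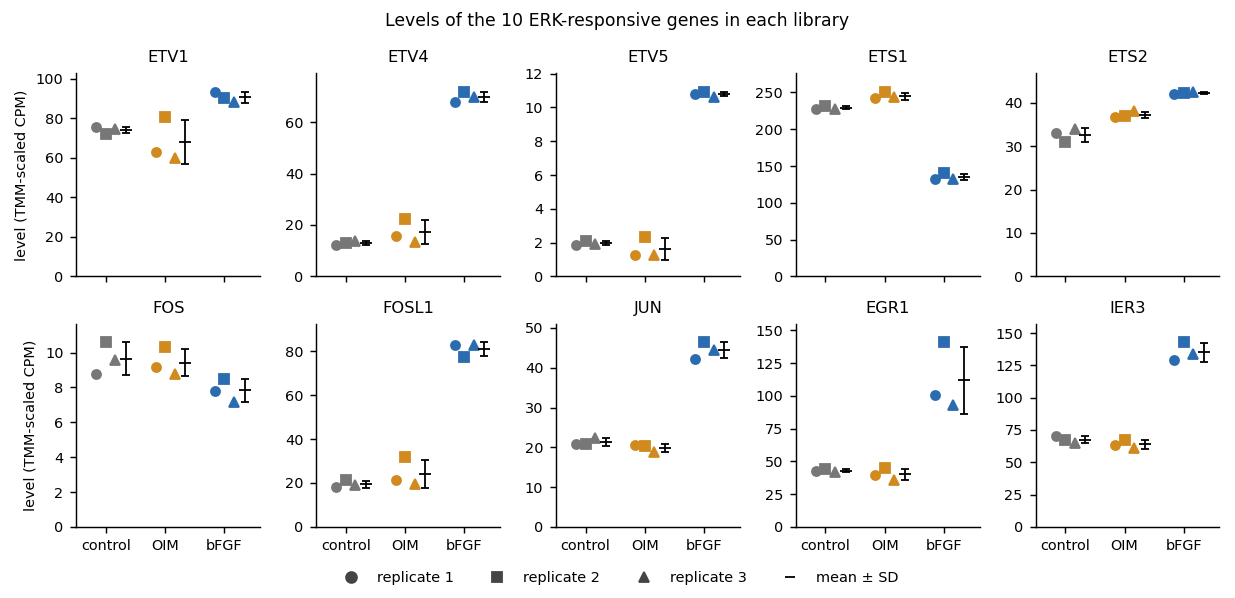
TMM-scaled CPM (y axis, from 0) of the 10 genes in the 3 libraries of each group (x axis), with the mean ± SD beside them. For ETV4, ETV5, FOSL1, JUN, EGR1 and IER3 the 3 bFGF libraries lie far above all others, for ETS1 they lie below, and OIM replicate 2 (square) lies above the other OIM libraries for ETV1, ETV4, ETV5 and FOSL1.

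ETV5, the PEA3 factor with the lowest level, showed the largest change of the 10. Its level was 1.85, 2.08 and 1.91 CPM in the control libraries, 1.27, 2.35 and 1.24 CPM in OIM, and 10.8, 10.9 and 10.6 CPM in bFGF. The bFGF libraries were close together and far above all others, and OIM replicate 2 was the only OIM library at or above the controls. The bFGF level was 6.57-fold that in OIM (log2 fold change 2.72, SE 0.19, edgeR adjusted p = 7.28e-11).

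ETV4, which drives migration and branching programmes downstream of FGF in many tissues, stood at 12.4, 13.1 and 13.6 CPM in control and 15.6, 22.4 and 13.5 CPM in OIM. In bFGF it reached 68, 71.8 and 69.9 CPM. No library of another group came near the bFGF libraries. The rise over OIM was 4.06-fold (log2 fold change 2.02, SE 0.11, edgeR adjusted p = 3.32e-12).

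ETV1, the third gene of the group, was the most abundant of them in control and did not pass the fold limit. Its level was 75.5, 72.2 and 74.6 CPM in control, 63.2, 80.8 and 60.1 CPM in OIM, and 93.5, 90.3 and 88.1 CPM in bFGF. The bFGF libraries lay above the rest, with OIM replicate 2 nearest to them. The log2 fold change against OIM was 0.41 (SE 0.073, edgeR adjusted p = 5.25e-05). It was 0.57 without OIM replicate 2 (adjusted p = 3.87e-12) and 0.63 with library totals alone, and ETV1 was called under both settings.

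ETS1, a factor of the same superfamily that is strong in endothelial and migrating cells, went the other way. It measured 227, 231 and 228 CPM in control, 242, 251 and 244 CPM in OIM, and 133, 140 and 132 CPM in bFGF. The groups did not overlap, and the bFGF libraries lay apart from the rest by far more than the spread within any group. The OIM level was 1.82-fold that in bFGF (log2 fold change of bFGF against OIM -0.86, SE 0.036, edgeR adjusted p = 3.72e-14).

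ETS2, its closest relative, stood at 33.1, 30.9 and 33.9 CPM in control, 36.6, 37 and 38 CPM in OIM, and 42, 42.1 and 42.5 CPM in bFGF. The 3 groups were ordered without overlap, but the step from OIM to bFGF was only 0.18 on the log2 scale (SE 0.053, edgeR adjusted p = 0.00478) and was not called.

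**Figure D2:**
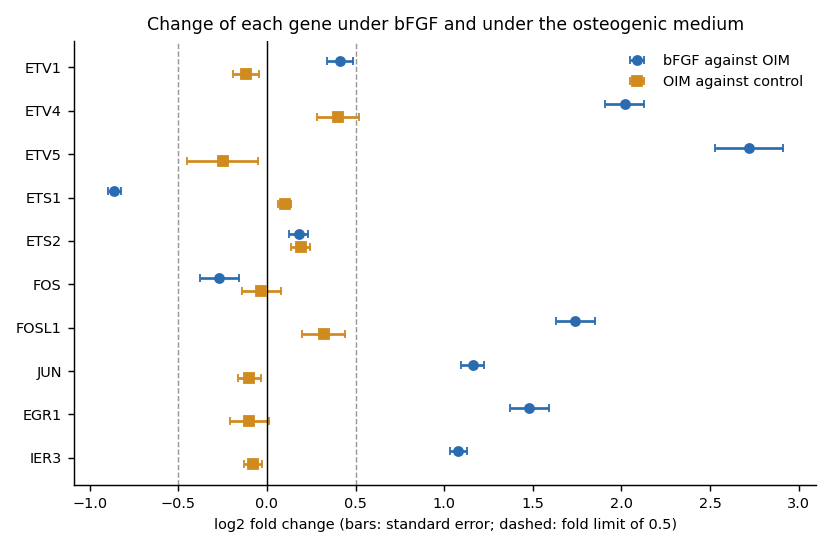
Log2 fold change (x axis) of each of the 10 genes (y axis) for bFGF against OIM (circles) and OIM against control (squares), with bars for the standard error and dashed lines at the fold limit of 0.5. ETV5 (2.72), ETV4 (2.02) and FOSL1 (1.74) lie farthest to the right under bFGF and ETS1 (-0.86) lies to the left, while every square lies between -0.5 and 0.5.

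FOSL1 encodes FRA1, a FOS family protein without the strong activation domain of FOS that accumulates when ERK stays active. Its level was 18.1, 21.2 and 19 CPM in control, 21.4, 31.6 and 19.6 CPM in OIM, and 82.9, 77.2 and 82.7 CPM in bFGF. All bFGF libraries were far above the rest, and OIM replicate 2 was the highest library outside bFGF. The rise over OIM was 3.33-fold (log2 fold change 1.74, SE 0.11, edgeR adjusted p = 3.51e-11).

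FOS, the classic immediate early gene, was not called. Its level was 8.75, 10.6 and 9.59 CPM in control, 9.19, 10.3 and 8.79 CPM in OIM, and 7.81, 8.51 and 7.19 CPM in bFGF. The 3 bFGF libraries were the lowest, with a gap to OIM that was smaller than the range within OIM. The log2 fold change against OIM was -0.27 (SE 0.11, edgeR adjusted p = 0.0337), it was -0.18 without OIM replicate 2 (adjusted p = 0.183), and it was -0.047 with library totals alone (adjusted p = 0.71).

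JUN, the common partner of FOS proteins in AP-1, measured 20.8, 20.9 and 22.4 CPM in control, 20.6, 20.3 and 18.7 CPM in OIM, and 42.3, 46.4 and 44.4 CPM in bFGF. Control and OIM lay side by side and every bFGF library was above 40 CPM. The bFGF level was 2.23-fold that in OIM (log2 fold change 1.16, SE 0.063, edgeR adjusted p = 2.44e-12).

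EGR1, a growth factor response gene of the EGR family, stood at 42.3, 44.2 and 42.2 CPM in control, 39.4, 44.8 and 35.9 CPM in OIM, and 101, 141 and 92.7 CPM in bFGF. The bFGF libraries spread more than for any other of the 10 genes, with bFGF replicate 2 on top, and none of them overlapped with another group. The rise over OIM was 2.79-fold (log2 fold change 1.48, SE 0.11, edgeR adjusted p = 1.83e-10). Without bFGF replicate 2 the log2 fold change was 1.28.

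IER3 was at 70.4, 67.1 and 65 CPM in control, 63.4, 67.4 and 61 CPM in OIM, and 129, 143 and 134 CPM in bFGF. Its control and OIM libraries overlapped and its bFGF libraries were all higher. The bFGF level was 2.12-fold that in OIM (log2 fold change 1.08, SE 0.049, edgeR adjusted p = 1.27e-13).

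None of the 10 genes was called under the osteogenic medium alone. In OIM against control, a comparison in which 2.35% of all genes tested were called, the median log2 fold change was -0.056 over the 10 genes and -0.0019 over all genes. Without the fold limit, 2 of the 10 passed the adjusted p, ETV4 at 0.40 on the log2 scale (SE 0.12, edgeR adjusted p = 0.0284) and ETS2 at 0.19 (SE 0.053, adjusted p = 0.0207). For 3 genes the groups did not overlap, with ETS1 and ETS2 higher and JUN lower in OIM, beside 28.8% of all genes tested. With library totals alone, JUN overlapped.

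The values of ETV4, ETV5 and FOSL1 in OIM depended on single libraries. OIM replicate 2 exceeded the mean of the other OIM libraries 1.87-fold for ETV5, 1.54-fold for ETV4, 1.54-fold for FOSL1 and 1.31-fold for ETV1. Without it, ETV5 was called lower in OIM than in control (log2 fold change -0.63, SE 0.18, edgeR adjusted p = 0.0153, against -0.25 and adjusted p = 0.478 with all libraries). ETV4 then stood at 0.16 (adjusted p = 0.169) and FOSL1 at 0.082 (adjusted p = 0.519). Without OIM replicate 3, ETV4 was called higher in OIM at 0.55 (adjusted p = 0.00097). Under bFGF, the rises over OIM were larger without OIM replicate 2 for ETV5 (3.12), ETV4 (2.28) and FOSL1 (2.00).

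The comparison of bFGF with control shares its libraries with the others and gave the same counts, 6 of the 10 genes called higher and ETS1 called lower, beside 18.9% and 20% of all genes tested. All 10 genes were separated without overlap, as were 73.7% of all genes. Log2 fold changes against control were 2.47 for ETV5, 2.42 for ETV4, 2.06 for FOSL1, 1.38 for EGR1, 1.06 for JUN, 1.0 for IER3 and -0.76 for ETS1. The values not called were 0.37 for ETS2, 0.29 for ETV1 and -0.30 for FOS.

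To set the genes beside each other, CPM was divided by the exon length of the gene in kilobases, which gives RPKM. The RefSeq models of FOS (1143 exon bases, coding sequence only) and JUN (1211 bases) are short, and the models the authors counted on are not given in the sources used here, so the place of FOS and JUN in this order is uncertain. In control, IER3 led at 54 ± 2.16 RPKM, followed by ETS1 at 39.6 ± 0.353 and JUN at 17.6 ± 0.759 (SD, n = 3). ETV1, EGR1 and FOSL1 came next at 11.5, 11.4 and 11.3 RPKM and overlapped with each other. ETS2 at 8.81 RPKM overlapped with FOS at 8.44 RPKM, and ETV4 at 2.56 RPKM and ETV5 at 0.469 RPKM were last.

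In OIM the order was nearly the same, with JUN, FOSL1, EGR1, ETV1 and ETS2 each overlapping with its neighbour in that list. Under bFGF, FOSL1 moved to the second place at 47.2 ± 1.88 RPKM, behind IER3 at 108 ± 5.64 RPKM. JUN at 36.6 RPKM and EGR1 at 29.7 RPKM overlapped, and both were above ETS1 at 23.4 RPKM. ETV1 at 14.1 RPKM and ETV4 at 13.7 RPKM also overlapped, although they were 4.5-fold apart in control. ETV5 remained the lowest at 2.6 ± 0.0316 RPKM.

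The make-up of each family also differed between groups. The PEA3 group summed to 14.5 ± 0.214 RPKM in control, 14.3 ± 2.78 in OIM and 30.4 ± 0.393 in bFGF (SD, n = 3). ETV1 made up 79.2% of the sum in control, 74% in OIM and 46.3% in bFGF, while ETV4 made up 17.6%, 23.3% and 45.2%, and ETV5 3.23%, 2.67% and 8.55%. The ratio of ETV4 to ETV5 was 5.46 ± 0.325 in control and 5.28 ± 0.132 in bFGF, and it was 8.87 ± 1.12 in OIM. ETS1 and ETS2 together summed to 52.5 ± 0.847 RPKM in OIM and 34.8 ± 0.714 RPKM in bFGF, and the ratio of ETS1 to ETS2 was 4.51 ± 0.26 in control, 4.23 ± 0.118 in OIM and 2.05 ± 0.0717 in bFGF.

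**Figure D3:**
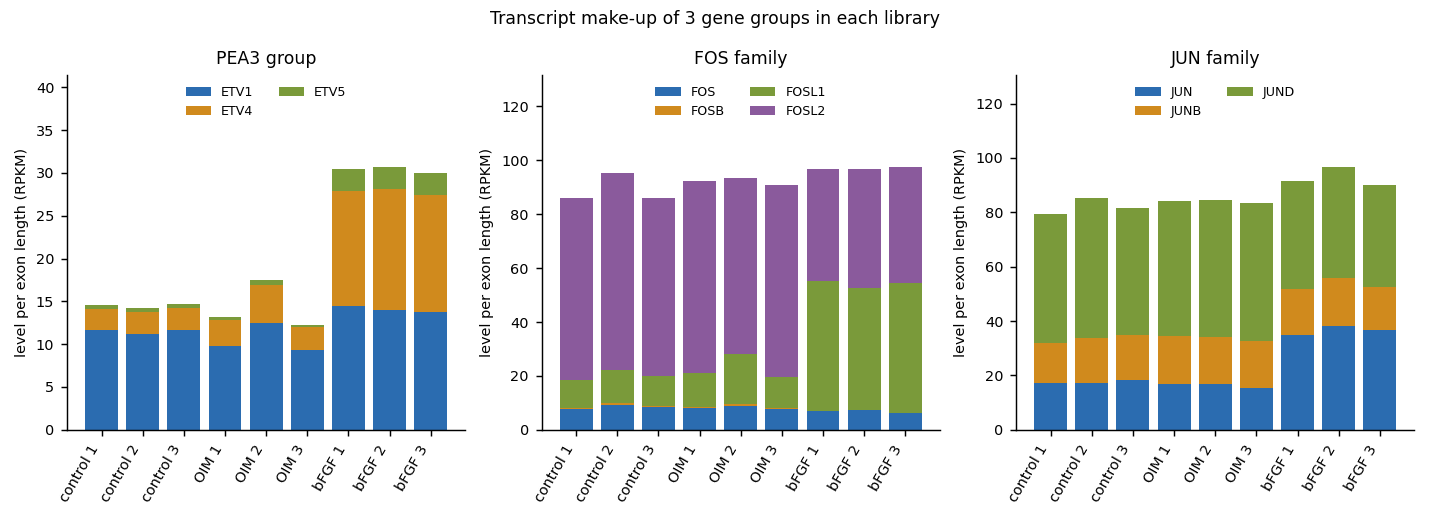
Stacked RPKM (y axis, from 0) of the PEA3 group, the FOS family and the JUN family in each of the 9 libraries (x axis), with 1 colour per gene. The PEA3 stack rises from 14.3 RPKM in OIM to 30.4 RPKM in bFGF, whereas the FOS family stack is of similar height throughout (92.1 and 97.1 RPKM) while the FOSL1 band widens and the FOSL2 band narrows.

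The FOS family differed more in make-up than in sum. It summed to 89.2 ± 5.31 RPKM in control, 92.1 ± 1.33 in OIM and 97.1 ± 0.573 in bFGF. FOSL2, which encodes FRA2, made up 77.3% of the family in control, 75.2% in OIM and 44.2% in bFGF, and FOSL1 made up 12.7%, 15.3% and 48.6%. The ranges of the FOSL1 share did not overlap between OIM (12.6% to 19.7%) and bFGF (46.6% to 50%). FOSL2 itself measured 533, 488 and 531 CPM in OIM and 310, 330 and 322 CPM in bFGF. That was a fall of 0.69 on the log2 scale that was called here and not called with library totals alone. FOS contributed 9.45%, 8.95% and 7.07%. FOSB, at 2.14 to 2.64 CPM in OIM and 0.308 to 0.541 CPM in bFGF, made up at most 0.64% of the family in any library. The log2 fold change of FOSB was -2.55 (SE 0.26, edgeR adjusted p = 2.89e-08). The sums, the shares and the ratios to FOS scale with the short model of FOS, whereas the change of a ratio between groups does not depend on it. The ratio of FOSL1 to FOS was 1.34 ± 0.0292 in control, 1.7 ± 0.3 in OIM and 6.93 ± 0.818 in bFGF.

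In the JUN family, JUN made up 21.5% in control, 19.6% in OIM and 39.4% in bFGF of sums of 82.2 ± 3, 84 ± 0.43 and 92.9 ± 3.49 RPKM, values that scale with the short model of JUN. JUND, the most abundant of the 3, made up 59.3%, 59.9% and 42.4%. It was at 91.8, 93.5 and 94.5 CPM in OIM and 73.9, 75.9 and 69.6 CPM in bFGF, a log2 fold change of -0.35 that was not called. JUNB, an early gene in many cells, was at 94.1, 91.8 and 91.6 CPM in OIM and 90.5, 94.3 and 85.7 CPM in bFGF. Its groups overlapped, and the log2 fold change was -0.037 (SE 0.047, edgeR adjusted p = 0.506).

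Of 17 other ETS genes tested, 2 were called higher (ERG and FLI1) and 3 lower (ETV7, ETV3 and ELF1), no larger a share than the 17.7% and 18.4% of all genes tested, with a median log2 fold change of -0.088. ERG, an endothelial and chondrocyte factor, measured 67.8, 66.2 and 66.4 CPM in OIM and 134, 143 and 135 CPM in bFGF (log2 fold change 1.04, SE 0.041, edgeR adjusted p = 1.25e-14). FLI1, its closest relative, changed by 0.94 and the repressor ETV3 by -0.67, and ETV7, at 0.596 to 2.45 CPM in OIM and bFGF, by -1.33. Of 10 other AP-1 genes tested, 1 was called higher (BATF2, 1.39) and 3 lower (FOSB, ATF3 and FOSL2), and the median was -0.37. ATF3, a stress response factor, measured 9.06, 11 and 10.1 CPM in OIM and 2.46, 4.36 and 3.19 CPM in bFGF (log2 fold change -1.59, SE 0.15, edgeR adjusted p = 1.61e-08). With library totals alone, ETV3, ELF1 and FOSL2 were not called, ELK1 and ELK3 were called higher, and no called gene of these lists changed sign.

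Of 20 other immediate early genes tested, 3 were called higher (EGR2, IER2 and PLK2) and 5 lower (NR4A3, NR4A2, ZFP36, BTG2 and KLF6), shares near the 17.7% and 18.4% of all genes tested, and the median was -0.10. With library totals alone the balance turned, with 6 called higher (GEM, IER5 and MYC gained), 4 lower (KLF6 lost) and a median of 0.12. EGR2, the relative of EGR1, rose from 5.81, 5.94 and 4.9 CPM in OIM to 21.7, 26.8 and 19.8 CPM in bFGF (log2 fold change 2.03, SE 0.13, edgeR adjusted p = 1.43e-11). IER2 followed at 0.88. NR4A3, a nuclear receptor gene of the early response, fell from 26.6, 27.1 and 26.5 CPM to 3.97, 4.59 and 3.96 CPM (log2 fold change -2.68, SE 0.086, edgeR adjusted p = 6.4e-16), and NR4A2 fell by 0.98 on that scale. NR4A3 was also the only gene of this list called in OIM against control, at 0.54. MYC was at 54 ± 3.52 CPM in OIM and 72.8 ± 5.69 CPM in bFGF, a log2 fold change of 0.43 that was not called. It was called without OIM replicate 2 (0.50) and with library totals alone (0.65).

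**Figure D4:**
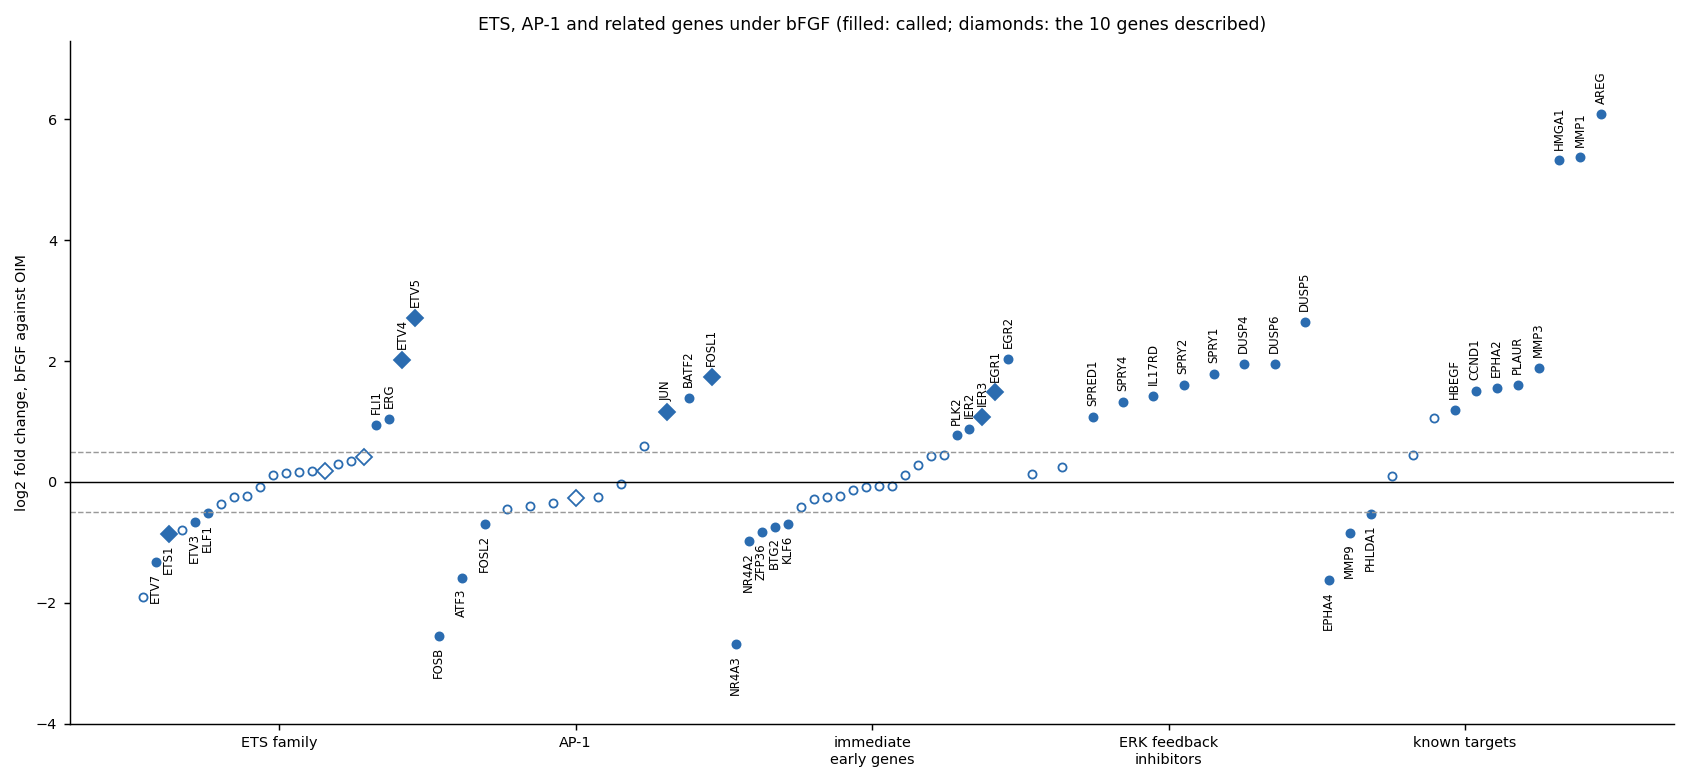
Log2 fold change of bFGF against OIM (y axis) for the genes of 5 groups (x axis, sorted by value within a group), with filled marks for called genes, diamonds for the 10 genes described and dashed lines at the fold limit of 0.5. The ETS, AP-1 and immediate early groups hold called genes on both sides of 0, while 8 of 10 feedback inhibitors lie above the limit and none below it.

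Feedback inhibitors of the pathway were mostly higher. Of 10 genes listed as feedback inhibitors of ERK signalling, 8 were called higher and 0 lower in bFGF against OIM, with a median of 1.51, beside 17.7% and 18.4% of all genes tested. SPRED2 (0.13) and SPRED3 (0.25) were not called. DUSP6, the phosphatase that removes the activating phosphates of ERK in the cytoplasm, measured 10.6, 13.8 and 9.89 CPM in OIM and 45.5, 47.2 and 40.4 CPM in bFGF (log2 fold change 1.95, SE 0.097, edgeR adjusted p = 5.48e-13). DUSP5, its nuclear counterpart, changed by 2.65 and DUSP4 by 1.95. The Sprouty genes SPRY1, SPRY2 and SPRY4, inhibitors of receptor tyrosine kinase signalling, changed by 1.79, 1.60 and 1.33. OIM replicate 2 was the highest OIM library for DUSP6, as for ETV4 and FOSL1.

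Of 21 genes of the cascade itself, from FRS2 to the RSK kinases, 1 was called higher (RPS6KA1, a RSK kinase, 1.03) and 4 lower (GAB1, MAP2K1, KSR1 and FRS2), and the median was -0.15, beside the 17.7% higher and 18.4% lower of all genes tested. FRS2 was not called with library totals alone (-0.28, against -0.51 with TMM) or without OIM replicate 2 (-0.48). RPS6KA3, another RSK kinase gene, stood at 0.47 and was called higher under these settings (0.69 and 0.54). MAP2K1, which encodes MEK1, measured 64.5, 68.4 and 69.8 CPM in OIM and 37.9, 33.3 and 37.3 CPM in bFGF (log2 fold change -0.90, SE 0.052, edgeR adjusted p = 5.65e-12). The docking protein gene GAB1 changed by -1.07. MAPK3, which encodes ERK1, stood at -0.35 and was not called. Phosphorylation was not measured, so these are transcript levels and not the activity of the kinases.

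Of 8 genes tested for repressors and degraders of these factors, 1 was called higher and 1 lower, which is no larger a share than that of all genes tested (17.7% and 18.4%). NAB2, a co-repressor that EGR1 induces, was called higher (log2 fold change 0.62, SE 0.069, edgeR adjusted p = 1.02e-07). COP1, listed under its older symbol RFWD2 and part of a ubiquitin ligase for the PEA3 proteins and JUN, was called lower (-0.56, SE 0.05, edgeR adjusted p = 4.22e-09), but not with library totals alone. CIC measured 268, 256 and 248 CPM in OIM and 259, 260 and 258 CPM in bFGF, and its log2 fold change was 0.0078 (SE 0.044, edgeR adjusted p = 0.883).

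Known target genes of these factors moved in both directions, with a median of 1.19. Of 15 tested, 8 were called higher (AREG, MMP1, HMGA1, MMP3, PLAUR, EPHA2, CCND1 and HBEGF) and 4 lower, EPHA4, MMP9 and PHLDA1 among them. Over all genes tested, 17.7% were called higher and 18.4% lower. With library totals alone, 10 targets were called higher (MMP13 and PLAU gained) and 3 lower. AREG, which encodes the EGF receptor ligand amphiregulin, stood at 0.517, 0.507 and 0.193 CPM in OIM (11 to 33 counts) and 24.8, 26.4 and 31.8 CPM in bFGF (log2 fold change 6.08, SE 0.19, edgeR adjusted p = 3.57e-16). MMP1, the interstitial collagenase with AP-1 sites in its promoter, was at 7.84, 15.4 and 9.42 CPM in OIM and 461, 456 and 453 CPM in bFGF, a log2 fold change of 5.37.

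CCND1, the cyclin of the start of the cell cycle, was at 380, 469 and 336 CPM in OIM and 1110, 1140 and 1114 CPM in bFGF (log2 fold change 1.51). It was also called higher in OIM than in control, where it measured 268, 276 and 254 CPM (log2 fold change 0.57, SE 0.074, edgeR adjusted p = 2.17e-05). That call rested on OIM replicate 2, without which the log2 fold change was 0.43 and CCND1 was not called. The only other target called in OIM against control was MMP3, which was lower at 0.664, 1.12 and 1.1 CPM in OIM against 2.04, 1.77 and 2.03 CPM in control (edgeR adjusted p = 0.00573). MMP1 stood at -0.43 on the log2 scale in OIM against control and was not called, but was called lower without OIM replicate 2 (-0.78). In bFGF against OIM, the ephrin receptor gene EPHA4 fell from 139, 117 and 151 CPM in OIM to 46.7, 42.6 and 42.1 CPM in bFGF (log2 fold change -1.63, SE 0.068, edgeR adjusted p = 3.38e-14). MMP9, a gelatinase, fell by 0.84 on that scale. PHLDA1 was not called with library totals alone or without OIM replicate 2.

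The genes whose pattern over the 9 libraries was most like that of each of the 10 were sought among 12524 genes by Pearson's r of log2 CPM. All points share the same libraries and group differences, so r is high for many genes and serves only to name them. For ETV4 they were POLE and KIFC1 (r = 0.999 for both) and for FOSL1 they were DTL and CDC45 (r = 0.999 for both). ETV5 was closest to NT5E (r = 0.998) and FGF13 (r = 0.997), ETS1 to ZNF652 and VGLL3 (r = 0.998 for both), JUN to COL7A1 and C1H14orf37 (r = 0.997 for both), and IER3 to SUMO3 and NDE1 (r = 0.998 for both). EGR1 was closest to TRPC4 and DCLRE1B (r = 0.988 for both), ETS2 to CDH2 and AZIN1 (r = 0.987 for both), ETV1 to SNAP91 (r = 0.981) and CWC27 (r = 0.978), and FOS to XPC (r = 0.945) and EGFR (r = 0.944).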

How the data were processed

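RNA of PVICs in 3 groups (control, OIM, and OIM with bFGF) was sequenced in 3 libraries each, and groups and replicate numbers came from the sample labels. The authors deposited 1 table of expected counts that were not normalized: 19535 gene rows with whole numbers, 9888 rows of non-coding transcripts with estimates, and 6179 circRNA rows. The methods name Cutadapt, STAR and a poly-A kit. The submitters' processing notes and labels name Trimmomatic, HISAT2, StringTie, Sscrofa11.1 and a kit that removes ribosomal RNA. Which of them made the table, the counting program and its strand setting are not given in the sources used here. The coordinates fit Sscrofa11.1, since 84.9% of the circRNAs started and ended at exon boundaries of that build. The 19 unnamed columns were empty.

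The gene rows were analysed in R 4.3.3 with edgeR 4.0.16 (filterByExpr, TMM, quasi-likelihood fit of all 9 libraries, 6 residual degrees of freedom), with Benjamini-Hochberg adjustment over 13662 genes and a limit of 0.5 on the absolute log2 fold change. The biological coefficient of variation (common estimate) was 0.0602, and counting error adds to it mainly for low genes. The fit was tested on simulated data. Standard errors were derived from the fold change and the F statistic of the test. RPKM used the union of exons in RefSeq, whose symbols matched 19510 of the genes. The replicate numbers did not pair the libraries. Alternatives were DESeq2 1.42.0, other normalizations, filters, fold limits and sample sets, a replicate block, and leaving out each library in turn.

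The 10 genes and the gene lists were chosen with earlier results of these data known. All 10 are described. Of each list, at least the 2 called genes with the largest change in each direction are named, and for likeness the 2 genes with the highest r among those with a mean of at least 10 counts. MMP10, NR4A1 and KRT14 were not matched by symbol. Protein sequences were not used here, and results of 2 listed genes and of 1 promoter window are not reported here, nor plotted.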

Additional observations from a re-analysis of the deposited data

How the results depend on the processing

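Over DESeq2, other normalizations, other filters, fits of only the 2 groups compared and the replicate block, the log2 fold change of each of the 10 genes kept its sign in all 3 comparisons. No call was lost, and 3 values were called only with library totals alone: ETV1 in bFGF against OIM (0.63) and against control (0.52), and ETS2 in bFGF against control (0.60). That scaling moved the median of all genes tested from -0.0029 to 0.22 in bFGF against OIM and from -0.016 to 0.21 in bFGF against control, and the share of calls that were higher from 49% to 68.8% and from 48.5% to 68.1%. In bFGF against OIM and in bFGF against control, 8 genes were called higher and 2 lower without a fold limit, and 6 higher and 0 lower with a log2 limit of 1, and in OIM against control 2 were called higher without a fold limit.

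Leaving out each library in turn, 0 to 1 genes were called higher (ETV4) and 0 to 1 lower (ETV5) in OIM against control, 6 to 7 were called higher in bFGF against OIM, and 1 was called lower. FOS in OIM against control ranged from -0.10 to 0.041, with its sign reversed without control replicate 2 (0.041) and without OIM replicate 3 (0.015). The largest range in bFGF against OIM was that of ETV5, from 2.55 to 3.12. Of the promoter searches, the EGR1 site was held by 1 of the 10 windows when only bases before the start were read.

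Replicate numbers shared by groups did not go with shared deviations (r from -0.032 to 0.0035 between libraries of the same number). With the replicate block, bFGF against OIM gave 6 calls higher and 1 lower among the 10, 0 were called in OIM against control, and the log2 fold change of ETV5 in bFGF against OIM was 2.75.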

Other observations

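The ETS1 gene (chromosome 9, 55377264 to 55512180, minus strand) overlaps 2 annotated non-coding genes. LOC110255459 lies on the same strand (55382860 to 55395520), with estimated counts of 642 to 1050 in the control libraries, 656 to 839 in OIM and 485 to 803 in bFGF, so its reads may be shared with ETS1 if the counting did not separate them. LOC110255458 lies on the opposite strand and was at 0 in 8 libraries and at 2.1 estimated counts in bFGF replicate 2. A circRNA within ETS1 (55380233 to 55380420) had 3 counts, all in control replicate 1, and none of the other 9 genes held a circRNA of the table.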
